A study of Mus musculus with 2 samples.

Results

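Myosin light chains and myosin-binding proteins are the partners of the myosin heavy chain in the thick filament of muscle. The set described here holds 10 genes of the 34745 in the deposited count table, found by name after matching Ensembl identifiers to mouse symbols. They are 6 light chains (Myl1, Myl2, Myl3, Myl4, Myl6b and Mylpf), the skeletal light chain kinase Mylk2, and 3 myosin-binding proteins (Mybpc1, Mybpc2 and Mybph). All 10 reached the minimum of 20 summed counts used for testing a gene. RNA was sequenced from whole gastrocnemius, a mostly fast calf muscle, of C57BL/6 mice aged 8 weeks. There was 1 library of genotype CIPC-flox/flox, in which the Cipc gene is flanked by loxP sites, and 1 of genotype CIPC-scko (scKO below). The series title describes a Cipc deletion restricted to satellite cells, the muscle stem cells; the Cre driver was not given in the sources used here. The title also names dystrophic mdx mice, but no label of these libraries does, and the labels do not say whether animals were pooled.

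Each myosin motor consists of a heavy chain whose lever arm carries an essential and a regulatory light chain. Fast and slow muscle fibres use different genes for each: Myl1 (essential) and Mylpf (regulatory) in fast fibres, Myl3 and Myl2 in slow fibres and in the heart ventricle. Mylk2 phosphorylates the regulatory chain after calcium has activated calmodulin, which strengthens fast contractions. Myosin-binding protein C cross-links thick and thin filaments and restrains the motor heads; Mybpc2 is the fast form, while Mybpc1 is the slow form and is also found in fast fibres.

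With 1 library per genotype nothing here has a replicate check. The values compare these libraries, not the genotypes, and no p-value was computed. Total counts were 14727219 (flox/flox) and 13842100 (scKO). Cipc, the targeted gene, was counted 658 times in the flox/flox library and 111 times in the scKO library, a log2 ratio of −2.51 (95% interval −2.82 to −2.22). Ratios are scKO over flox/flox after library scaling; their intervals, and those of shares, cover counting error only. The 8 skeletal muscle markers that check the tissue, among them Ckm and Acta1, each had over 1000 counts in both libraries. Their summed level in CPM, the count scaled to library size, was 60422 in flox/flox against 57142 in scKO. In whole muscle, fewer cells of a type and less RNA per cell cannot be told apart.

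None of the 10 genes had a ratio as low as 0.8 or as high as the inverse of 0.8, and none was past 2-fold. Over all 12662 tested genes, 7.54% were that low and 7.18% that high with an interval that excluded no difference, 14.7% in all, and 3.4% were past 2-fold. Of the 235 genes with at least 10000 summed counts, the class of most members, 5.96% were that low and 2.55% that high, 8.51% in all, and 0.426% were past 2-fold. Both main essential light chains, the fast Myl1 and the slow Myl3, were lower in the scKO library, while both regulatory light chains, the fast Mylpf and the slow Myl2, were close to equal. In the binding protein C pair, the fast form Mybpc2 was lower and the slow form Mybpc1 slightly higher. The median log2 ratio of the 10 genes was −0.0018, beside 0.0021 over all tested genes; total-count scaling shifts well-counted genes by 0.038.

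**Figure D1:**
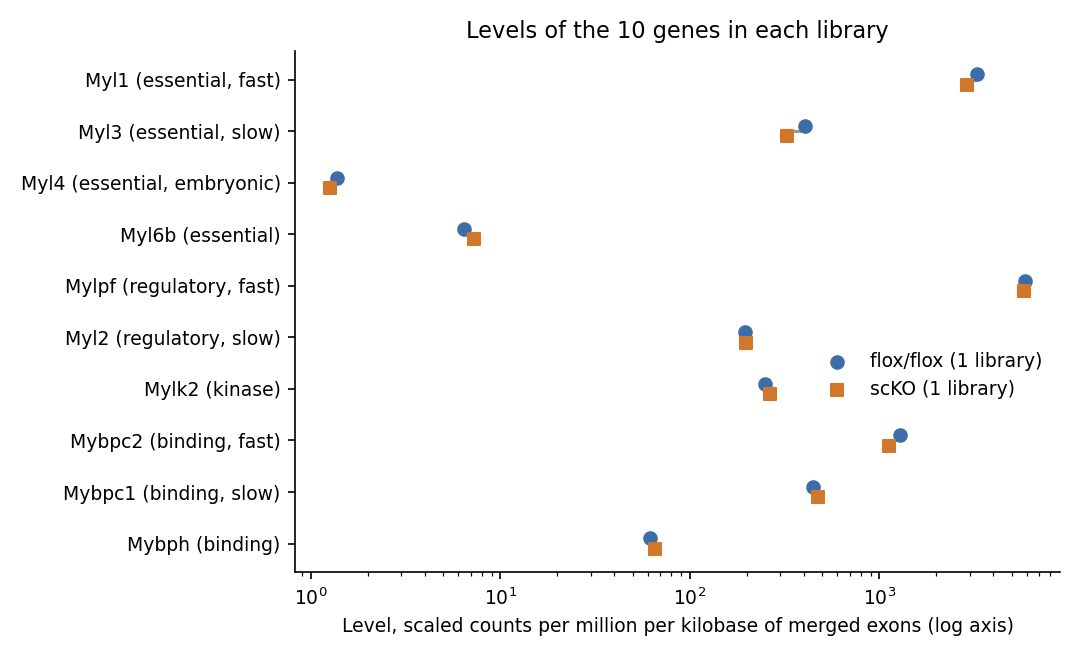
Level of each of the 10 genes in the flox/flox library (circles) and the scKO library (squares), in scaled CPM per kilobase of merged exons on a log axis, 1 library each. Mylpf and Myl1 are the highest and Myl4 the lowest in both libraries, and the symbols of a gene lie close together.

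Levels ranged widely. Per kilobase of merged exons, Mylpf stood highest at 5880 CPM per kb in flox/flox and 5821 in scKO, followed by Myl1 (3280 and 2916), Mybpc2 (1289 and 1132), Mybpc1 (445 and 473) and Myl3 (405 and 327). Mylk2 (251 and 264), Myl2 (196 and 197) and Mybph (61.4 and 65.7) followed. Myl6b (6.44 and 7.30) and Myl4 (1.38 and 1.26) were far lower. The order was the same in both libraries, but it depends on which length stands for a gene. The merged exons of Myl1 span 2074 bp and those of Mylpf 1062 bp, while their principal transcripts are 803 and 766 bp. Per kilobase of principal transcript Myl1 and Mylpf were nearly level, at 8472 and 8152 CPM per kb in flox/flox and 7531 and 8070 in scKO. On this scale Myl3 (883 and 713) also passed Mybpc1 (514 and 546). Myl1 makes a long and a short essential chain from separate start sites, and counts per gene do not separate them. With the 1082 bp transcript of the long form as the length, Myl1 stood at 6287 and 5589 CPM per kb. Together the 10 genes took 2.15% of all counts in flox/flox, against 2.07% in scKO.

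The essential light chains stabilise the lever arm. Myl1 (ENSMUSG00000061816, GRCm38 chromosome 1, 66924295 to 66945404, minus strand) was counted 98867 times in flox/flox against 84828 times in scKO. Its log2 ratio was −0.17 (−0.18 to −0.16), a ratio of 0.889. Myl3 (ENSMUSG00000059741, chromosome 9, 110741861 to 110769798, plus strand) had 12021 and 9369 counts. Its log2 ratio was −0.31 (−0.35 to −0.27), a ratio of 0.808. This was the lowest ratio of the set, just inside the limit of 0.8. The fast and the slow chain thus both had their lower value in the scKO library. Myl4, the embryonic and atrial essential chain (ENSMUSG00000061086), had only 93 and 82 counts. Its log2 ratio of −0.13 had an interval from −0.58 to 0.31, so a difference of the size seen for Myl3 was not detectable at this depth. Myl6b, an essential chain of slow skeletal and non-muscle myosin (ENSMUSG00000039824), had 173 and 189 counts (0.18, −0.13 to 0.48).

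How far reads of these related genes could be confused bears on those values, so a stretch of the coding sequences is shown. The following 60 coding bases, 5′ to 3′, come from GENCODE M21 transcripts on GRCm38. They are the ungapped window in which Myl3 is most like Myl1; Myl6 is the smooth and non-muscle paralog beside Myl6b. Capitals mark bases that differ from Myl1.
Myl1: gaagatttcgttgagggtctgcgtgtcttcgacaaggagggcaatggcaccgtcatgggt
Myl3: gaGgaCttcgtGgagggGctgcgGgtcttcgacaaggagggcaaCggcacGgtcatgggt
Myl4: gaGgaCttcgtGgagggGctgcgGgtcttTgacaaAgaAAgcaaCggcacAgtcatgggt
Myl6b: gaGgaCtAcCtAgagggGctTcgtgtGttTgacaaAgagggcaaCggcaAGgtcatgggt
Myl6: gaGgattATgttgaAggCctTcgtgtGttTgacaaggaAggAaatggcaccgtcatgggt
In this window Myl3 differed from Myl1 at 7 of 60 bases, Myl4 at 11, Myl6b at 13 and Myl6 at 10. Over the aligned coding sequence Myl1 shared 73.3% of bases with Myl3, 76.0% with Myl4 and 71.8% with Myl6b, and Mylpf shared 70.3% with Myl2. No stretch of 50 coding bases of Myl2, Myl3, Myl4, Mylpf, Mylk2 or Mybpc1 occurred in an annotated transcript of another gene. Such shared stretches were found for the other 4 members. In Mybph 16.4% of the 50-base windows and 9.63% of the 100-base windows also lie in Adora1. In Myl6b 1.57% of the 50-base windows lie in pseudogenes, and in Mybpc2 0.685% lie in Gm44646. In Myl1 60.3% of the 50-base windows and 26.2% of the 100-base windows lie in the processed pseudogene Mylf-ps (chromosome 12, 101221997 to 101222417). That pseudogene was not analysed here. How reads matching both were counted is not given in the sources used here, so the Myl1 counts are uncertain to that extent.

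The regulatory light chains, which wrap the part of the neck next to the filament shaft, were close to equal. Mylpf (ENSMUSG00000030672, chromosome 7, 127208890 to 127214298, plus strand) was counted 90751 times in flox/flox against 86708 times in scKO. Its log2 ratio was −0.015 (−0.028 to −0.0012), and it turned to 0.024 with total-count scaling. Myl2 (ENSMUSG00000013936, chromosome 5, 122100951 to 122113472, plus strand) had 5541 and 5389 counts and a log2 ratio of 0.011 (−0.043 to 0.065). Ratios between genes of the same library need no scaling. There were 2.17 Myl3 counts per Myl2 count in flox/flox and 1.74 in scKO, a log2 difference of −0.32 (−0.39 to −0.25). For the fast pair there were 1.09 Myl1 counts per Mylpf count in flox/flox and 0.978 in scKO (−0.16, −0.17 to −0.14). The essential chain was therefore lower relative to its regulatory partner in scKO in the fast and in the slow pair, by more than the counting error. Summed over the fast and slow gene, the essential pair stood at −0.18 (−0.20 to −0.17) and the regulatory pair at −0.013 (−0.026 to −6.4e-05).

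**Figure D2:**
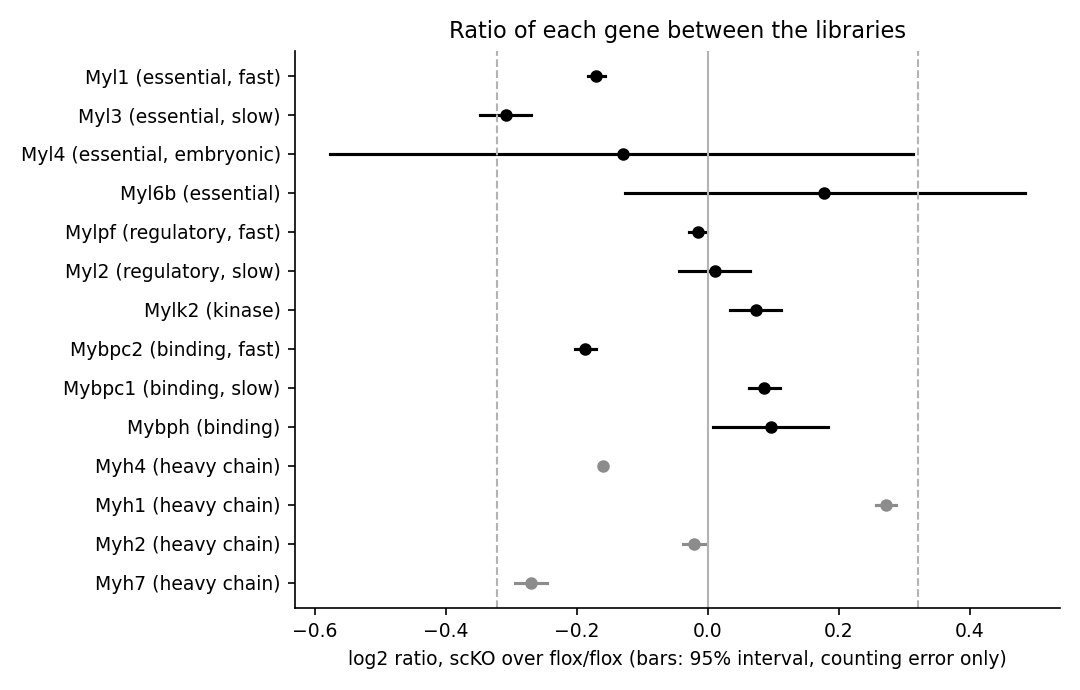
Points are scKO to flox/flox log2 ratios of the 10 genes and of 4 adult myosin heavy chains (the set below them, in grey), with 95% intervals for counting error. Dashed lines mark a ratio of 0.8 and its inverse. Myl1, Myl3 and Mybpc2 lie left of 0 near Myh4 and Myh7, while Mylpf and Myl2 lie near 0.

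Light chains can be read against the heavy chains they bind. The fast IIb heavy chain Myh4 had a log2 ratio of −0.16 (700136 and 605139 counts) and the slow heavy chain Myh7 of −0.27 (30246 and 24210 counts). The IIx chain Myh1 stood at 0.27 (63082 and 73559) and the IIa chain Myh2 at −0.021 (57031 and 54250, and 0.017 with total-count scaling). Myl1 counts per Myh4 count differed by −0.011 on the log2 scale (−0.025 to 0.0036) and Myl3 counts per Myh7 count by −0.038 (−0.085 to 0.0077), both intervals including 0. By contrast Mylpf per Myh4 differed by 0.14 (0.13 to 0.16) and Myl2 per Myh7 by 0.28 (0.22 to 0.34). Against Myh4 and Myh7 alone, the essential chains thus stood in nearly the same proportion in both libraries, and the regulatory chains in a higher one in scKO. Against the 4 adult heavy chains together the essential pair was lower in scKO. The summed heavy chains had a log2 ratio of −0.12 (−0.12 to −0.11) and the essential pair −0.18 (−0.20 to −0.17). Per kilobase of principal transcript, the level of Myl1 plus Myl3 was 0.964 times that of the 4 adult heavy chains in flox/flox and 0.921 times in scKO. The level of Mylpf plus Myl2 was 0.885 and 0.95 times that of the same heavy chains. These are RNA levels, whose absolute size moves with the length chosen for Myl1.

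Mylk2, the kinase of the regulatory chain (ENSMUSG00000027470, chromosome 2, 152911352 to 152923068, plus strand), had 10758 and 10925 counts. Its log2 ratio was 0.073 (0.035 to 0.11). Of the other 11 genes fixed for light chain kinases, their calmodulins and the phosphatase, 10 were tested, with a median of −0.10. There were 3 intervals below 0, 3 above and 4 that included it, beside 12.3% below and 12.8% above over all tested genes. Mylk4, another muscle kinase of the same family, was counted 39499 times in flox/flox against 30671 times in scKO (−0.31, −0.34 to −0.29). It was the member of that list with the most counts, and differed in the direction opposite to Mylk2. Calm3, which encodes calmodulin, stood at −0.32 (5528 and 4283 counts) and the phosphatase subunit gene Ppp1r12c at −0.24 (−0.53 to 0.053). Mylip, a ubiquitin ligase named for binding a light chain, was past the inverse of 0.8, with 219 and 277 counts (0.39, 0.13 to 0.65). It was the 1 gene of the list to pass that limit, against 7.18% of all tested genes.

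Among the myosin-binding proteins, the fast form was lower. Mybpc2 (ENSMUSG00000038670, chromosome 7, 44501699 to 44524656, minus strand) was counted 67626 times in flox/flox against 57331 times in scKO. Its log2 ratio was −0.19 (−0.20 to −0.17), a ratio of 0.878. Mybpc1 (ENSMUSG00000020061, chromosome 10, 88518279 to 88605152, minus strand) had 29298 and 30026 counts (0.087, 0.063 to 0.11). Mybph, a shorter relative of the C proteins (ENSMUSG00000042451, chromosome 1, 134193448 to 134201232, plus strand), had 2079 and 2145 counts (0.096, 0.0085 to 0.18). Its interval included 0 with DESeq2 size factors. Mybpc2 counts per Myh4 count differed by −0.028 (−0.045 to −0.011), and Mybpc1 counts per Myh7 count by 0.36 (0.32 to 0.39). Mybpc2 was thus in nearly the same proportion to Myh4 in both libraries, and Mybpc1 in a higher proportion to Myh7 in scKO. Mybpc1 is also found in fast fibres, so the latter ratio does not give its proportion to all its heavy chains. Myh7 itself had a log2 ratio of −0.27. Mybpc3, the heart form, and Mybphl had 0 counts in both libraries, which allows up to 0.206 CPM in flox/flox and 0.214 in scKO.

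Some of these genes overlap others. Exons of Mybph share 1162 bp, 49.9% of its merged length, with Adora1 on the opposite strand, which had 7 and 2 counts. Mybpc2 shares 192 bp with Gm44646 (0 and 1 counts), Myl3 95 bp with Pth1r (14 in each) and Myl2 60 bp with Ccdc63 (1 and 0). Gm48752, which covers 252 bp of Mybpc1 exons, was not analysed here. The counted partners had few counts beside the members. Strand use in counting was not given in the sources used here, so reads of overlapping opposite genes cannot be told apart. Mybph also lies 88756 bp from Myog, the gene of the differentiation factor myogenin. Myog had 82 and 35 counts (−1.17, −1.79 to −0.59), a difference in the other direction from that of Mybph.

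**Figure D3:**
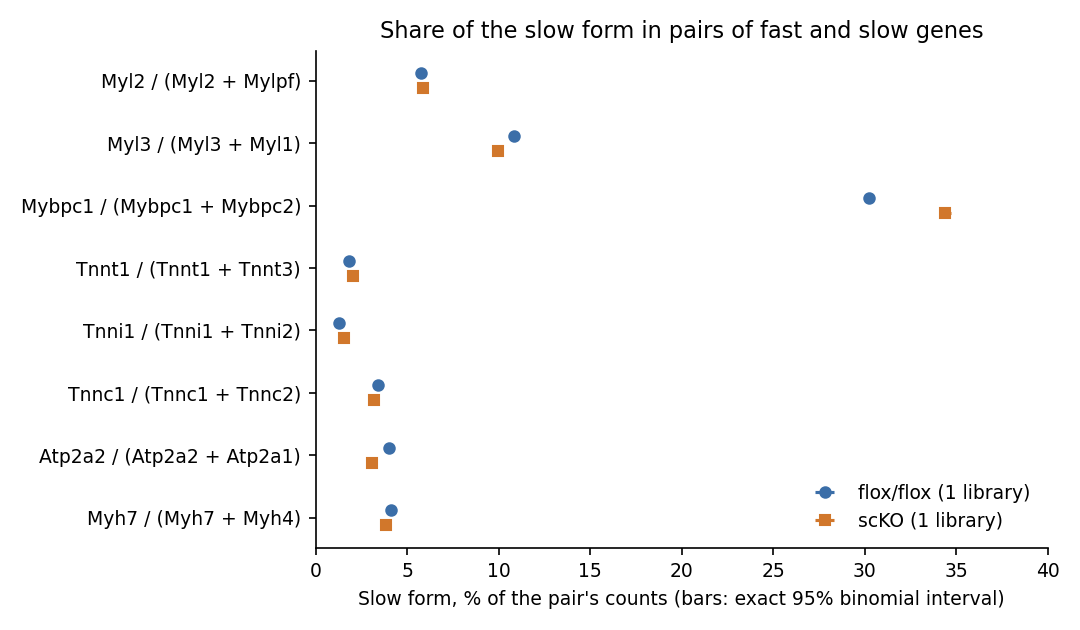
Share of the slow gene in the counts of 8 pairs of fast and slow genes in flox/flox (circles) and scKO (squares), with exact binomial 95% intervals that are mostly narrower than the symbols. The Mybpc1 share is the highest and is 34.4% in scKO against 30.2% in flox/flox, and each other share differs by less than 1 percentage point.

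The fast share of each pair of members gives a view that needs no scaling. Mybpc2 took 69.8% of the Mybpc1 and Mybpc2 counts in flox/flox (exact binomial interval 69.5 to 70.1%) and 65.6% in scKO (65.3 to 65.9%). Myl1 took 89.2% of the Myl1 and Myl3 counts in flox/flox (89.0 to 89.3%) and 90.1% in scKO (89.9 to 90.2%). Mylpf took 94.2% (94.1 to 94.4%) and 94.1% (94.0 to 94.3%) of the Mylpf and Myl2 counts. The fast form was thus a smaller part of binding protein C in scKO, a slightly larger part of the essential chains, and an indistinguishable part of the regulatory chains. The log2 odds of the fast form differed by −0.27 (−0.30 to −0.25), 0.14 (0.097 to 0.18) and −0.026 (−0.082 to 0.030) in these 3 pairs. Pairs outside the set also went both ways. Troponin I (Tnni2 and Tnni1) stood at −0.30 and troponin T (Tnnt3 and Tnnt1) at −0.19. Troponin C (Tnnc2 and Tnnc1) stood at 0.11, the heavy chains Myh4 and Myh7 at 0.11 and the calcium pumps (Atp2a1 and Atp2a2) at 0.39. The fast form was thus not displaced in one direction across these pairs.

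**Figure D4:**
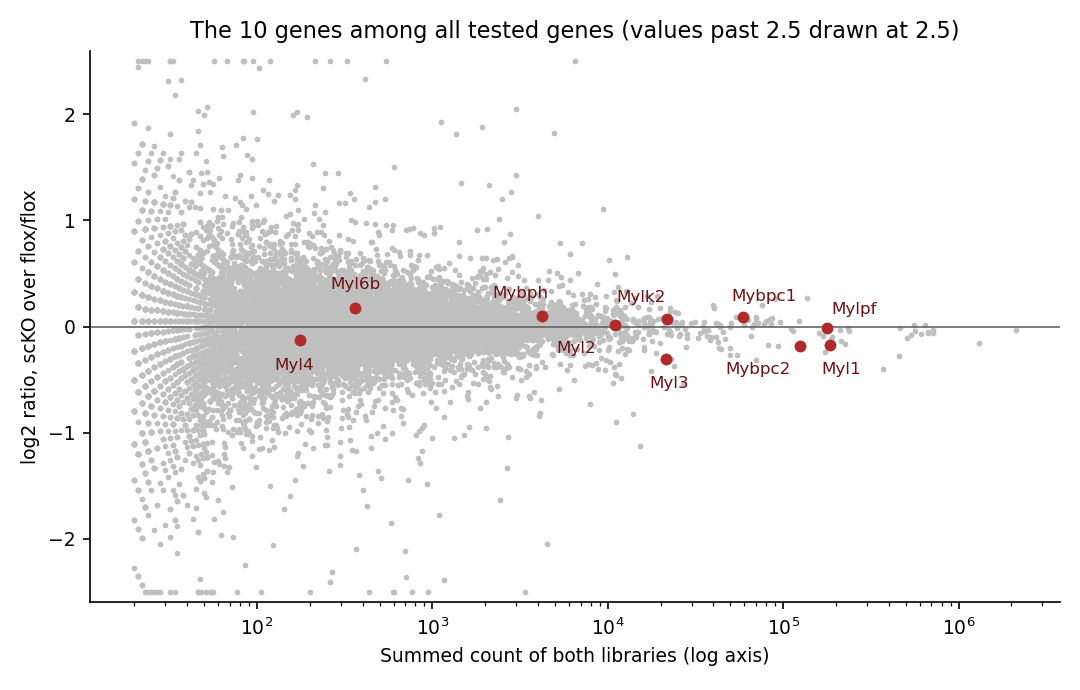
The scKO to flox/flox log2 ratio against the summed count of both libraries for all 12662 tested genes (grey) and the 10 genes (red), 1 library per genotype. The members lie within the cloud of genes of like count, with Myl3, Mybpc2 and Myl1 below 0.

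By the intervals alone, 4 of the 10 genes were lower (Myl1, Myl3, Mylpf and Mybpc2), 3 higher (Mylk2, Mybpc1 and Mybph) and 3 included 0 (Myl2, Myl4 and Myl6b). Over all tested genes 12.3% had an interval below 0 and 12.8% above it, so 50.9% of these lay above; with total-count scaling 63.1% did. Narrow counting intervals make such calls common among abundant genes. Of the genes with at least 10000 summed counts, 48.5% were lower and 33.6% higher by this rule. Of the 7 members in that class, 4 were lower and 2 higher, which is near that background. The middle 50% of these abundant genes lay between log2 ratios of −0.11 and 0.056, with a median of −0.018. Myl1, Myl3 and Mybpc2 lay below that range and Mylk2 and Mybpc1 above it.

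The promoters of the members were searched for short motifs to show what the start regions hold. RefSeq (GRCm38.p6) gave 10 windows, from 250 bases before to 50 after a start site, for 9 of the 10 genes. Myl1 had 1 window although its long and short forms have separate start sites, so the other start was not searched. The motif CATTCC, bound by TEAD factors and called MCAT in muscle genes, was searched on both strands. It lay in 4 of the 10 windows, beside 14.7% of all 32851 windows. It was in 3 of the 4 members whose intervals lay below 0 (Myl1, Myl3 and Mybpc2) and not in the other, Mylpf. It was also in Mybph, whose interval lay above 0, and not in Mybpc1, another higher member. Whether its presence goes with the direction of a ratio was not tested. Mylk2, also higher, was the gene without a window, and the calls of Mylpf and Mybph depended on the scaling. These windows follow 5′ to 3′ on the gene's strand, with CATTCC or its reverse complement in capitals. They are chr1:66945007-66945306 (Myl1, minus), chr9:110763428-110763727 (Myl3, plus), chr7:44524620-44524919 (Mybpc2, minus) and chr1:134193198-134193497 (Mybph, plus).
Myl1: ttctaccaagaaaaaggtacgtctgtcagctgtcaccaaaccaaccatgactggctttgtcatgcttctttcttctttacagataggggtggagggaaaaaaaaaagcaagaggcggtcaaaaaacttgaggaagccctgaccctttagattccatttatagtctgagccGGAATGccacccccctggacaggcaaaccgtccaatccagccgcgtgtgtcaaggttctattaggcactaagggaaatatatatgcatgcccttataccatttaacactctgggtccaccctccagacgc
Myl3: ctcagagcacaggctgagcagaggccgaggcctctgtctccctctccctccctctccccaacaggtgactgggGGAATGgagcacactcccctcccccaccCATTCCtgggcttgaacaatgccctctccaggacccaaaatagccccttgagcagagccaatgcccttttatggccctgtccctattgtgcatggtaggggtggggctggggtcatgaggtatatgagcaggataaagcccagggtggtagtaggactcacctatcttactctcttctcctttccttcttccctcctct
Mybpc2: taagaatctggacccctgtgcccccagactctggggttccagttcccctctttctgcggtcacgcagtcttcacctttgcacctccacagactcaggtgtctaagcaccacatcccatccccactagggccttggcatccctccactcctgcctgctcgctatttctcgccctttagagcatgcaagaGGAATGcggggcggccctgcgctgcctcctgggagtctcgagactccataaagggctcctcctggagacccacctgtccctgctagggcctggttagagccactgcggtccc
Mybph: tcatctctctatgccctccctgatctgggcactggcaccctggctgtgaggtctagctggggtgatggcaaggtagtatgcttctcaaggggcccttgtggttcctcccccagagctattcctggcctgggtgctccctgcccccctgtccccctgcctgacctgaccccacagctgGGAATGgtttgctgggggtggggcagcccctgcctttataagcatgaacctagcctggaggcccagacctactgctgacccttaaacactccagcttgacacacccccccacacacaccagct
Counted from the start site, the match began at position −80 in Myl1, −62 in Mybpc2 and −73 in Mybph, and at −177 and −149 in Myl3. TATAAA lay in 3 windows (Myl1, Mybph and 1 of the 2 of Myl2), beside 13.6% of all. The general E-box CANNTG lay in 9 of 10, beside 72.3% of all. The E-box CACGTG preferred by CLOCK and BMAL1, the pair that CIPC inhibits, is a special case of CANNTG. It lay in none of the 10, beside 7.15% of all windows. The MEF2 consensus lay in none (3.19% of all) and the CArG box in the Myl3 window (1.63% of all). Both RefSeq start sites of Myl2 lie far from the nearest GENCODE start, at distances of 8227 and 7762 bp. A match is only a match of letters; no binding was measured.

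**Figure D5:**
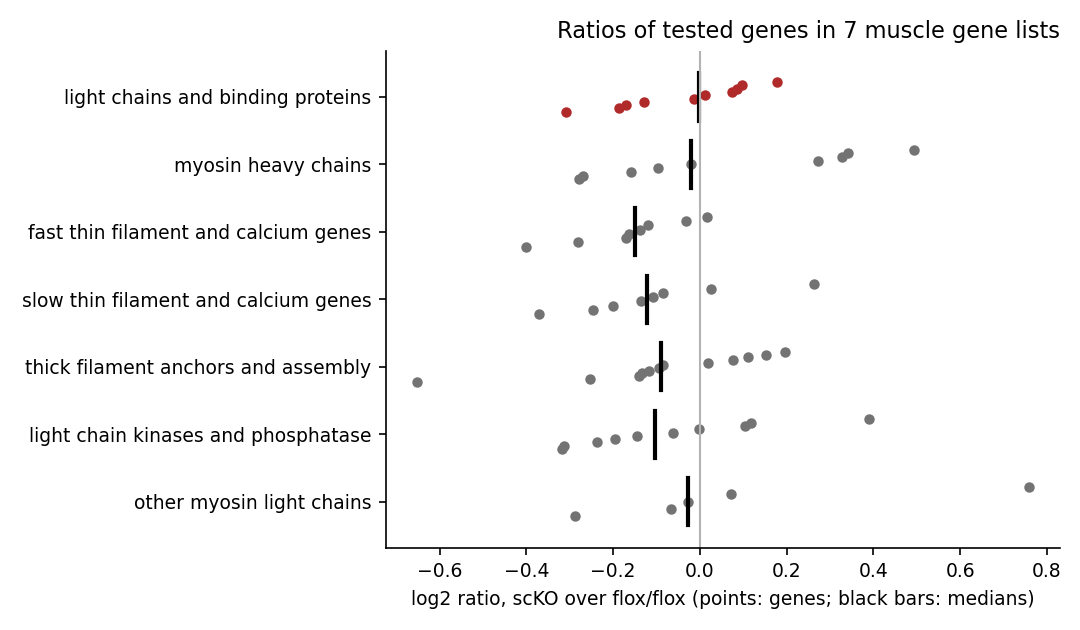
The scKO to flox/flox log2 ratio of each tested gene in 7 muscle gene lists, with the median of each list as a black bar. The light chains and binding proteins spread to both sides of 0 around a median of −0.0018, while most fast and slow thin filament genes lie below 0.

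Other parts of the sarcomere gave the setting. Of 8 fast thin filament and calcium genes, 7 had intervals below 0 and 1 above, with a median of −0.15, and Tpm1, the fast tropomyosin, stood at −0.40. Of 8 slow counterparts, 6 were below and 1 above, with a median of −0.12; the slow calcium pump Atp2a2 stood at −0.37 and slow troponin I, Tnni1, at 0.26. The heavy chains had a median of −0.021 over 9 genes, with 4 intervals below 0 and 1 above. That median was 0.017 with total-count scaling, and 0.13 over the heavy chains with a summed count of at least 100. Thick filament anchors and assembly factors had a median of −0.090 over 12 genes, with 7 below and 3 above. Among them Myom3, an M-band cross-linker, had 2214 and 1359 counts (−0.65, −0.75 to −0.55), and Unc45b, a myosin chaperone, 3406 and 3768 (0.20, 0.13 to 0.26). These medians are descriptions, and no difference between lists was tested. By the interval rule, 12.3% of all tested genes lay below 0 and 12.8% above. Among genes with at least 10000 summed counts, a class that holds all 8 fast genes, the shares were 48.5% and 33.6%.

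Light chains outside the set, which serve mostly smooth and non-muscle myosin, gave few calls. Of 5 tested genes, 1 had an interval below 0: Myl9, the smooth muscle regulatory chain, with 367 and 290 counts (−0.29, −0.52 to −0.062). Over all tested genes, 12.3% had an interval below 0 and 12.8% above. Myl6 (588 and 596 counts) stood at 0.071 and Myl12b at −0.067, both with intervals that include 0. Myl10 had the highest ratio on few counts, 20 and 33 (0.76, −0.070 to 1.65). Myl7, the atrial regulatory chain, had 0 counts in both libraries. The 12 smooth muscle and pericyte markers summed to 574 CPM in flox/flox against 582 in scKO, with 2 intervals below 0 and 2 above. Most of this sum was Rgs5 (331 and 321 CPM), so it says little about the others. The part of these markers in the Myl9 value was not tested.

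Markers of other cell types are given beside the members because whole muscle holds them. Their counts of intervals stand beside 12.3% below 0 and 12.8% above over all tested genes. Myl2, Myl3 and Myl4 are also heart genes. The 10 heart markers summed to 7.84 CPM in flox/flox against 8.84 in scKO, and 6 of them (Myl7, Mybpc3, Nppa, Nppb, Nkx2-5 and Tbx5) had 0 counts in both, against 827 CPM of Myl3 in flox/flox. Embryonic and regenerating fibre genes, which go with Myl4, had 3 of 7 tested intervals below 0 and none above. Actc1, the cardiac and embryonic actin, had 10625 and 4708 counts (−1.12) and Myod1 201 and 130 (−0.58), while the embryonic heavy chain Myh3 had 66 and 80 (0.33, −0.16 to 0.82). Satellite cell markers summed to 111 and 112 CPM, but most of this was Itga7 (63.9 and 64.0 CPM), so the sum says little about the others. Of their 8 intervals 1 was below 0, that of Pax7, with 69 and 39 counts (−0.76, −1.38 to −0.19). Blood markers were lower in 5 of 5 (146 and 112 CPM summed), and fibro-adipogenic progenitor markers in 4 of 7 (490 and 402 CPM). Endothelial markers were higher in 3 of 7 (238 and 277 CPM), and macrophage markers lower in 1 of 8 (55.5 and 54.4 CPM). No interval of the 6 adipocyte markers excluded 0 (12.5 and 12.6 CPM). Their part in the member values was not tested.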

How the data were processed

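Per the labels' protocols, total RNA of gastrocnemius was checked on a Bioanalyzer and made into libraries for Illumina sequencing. The submitters' processing notes name CASAVA, HISAT2 2.0.4, StringTie 1.3.0 and the build GRCm38, without roles. The authors deposited raw counts per gene. The authors also deposited FPKM values. Over 11572 genes, those counted 20 times or more in flox/flox and at all in scKO, the gene length implied by FPKM and counts was the same in both libraries within 0.0198%. Gene names matched 34267 of 34745 identifiers. Positions, exons and transcripts came from GENCODE M21, on the same build.

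Counts were scaled by TMM (edgeR 4.0.16, R 4.3.3). The log2 ratio used a prior count of 0.5, and its 95% interval is exact conditional binomial (Clopper-Pearson). Reads are not independent molecules, so intervals and limits for 0 counts (3 counts) cover counting error only. A gene was tested at a summed count of at least 20, and called past a ratio of 0.8 or its inverse, or past 2-fold, where the interval also excluded 1. The procedure was tested on simulated data. These held counting error only, so the test does not cover variation between animals or libraries. Shares within pairs used exact binomial intervals and exact conditional odds ratios. Sequences were aligned with biopython 1.88. The members and lists were chosen with earlier results of these data known. Named genes were the members, Cipc, Myog, Myh1, Myh2, Myh4 and Myh7, exon-overlapping genes, and the genes of largest absolute ratio in each list (up to 4, or 2 for cell type markers). Other named genes (the remaining pair, marker and paralog genes) were chosen after their values were seen. Alternatives covered the scaling (DESeq2 1.42.0 size factors among them), prior count, count minimum, unit and gene length.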

Additional observations from a re-analysis of the deposited data

How the results depend on the processing

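Of 60 member ratios recomputed under other scalings, a prior count of 5 or the FPKM values, 58 were not reversed. Only genes whose interval excluded 0 could count as reversed. The ratios of Myl2, Myl4 and Myl6b could therefore not count, though none of them changed sign. The FPKM ratios nearly repeat total-count scaling and are not a separate check. Mylpf turned from −0.015 to 0.024 with total-count scaling and with FPKM values, as did the heavy chain Myh2 from −0.021 to 0.017. Total-count scaling adds 0.038 to the log2 ratio of well-counted genes, and slightly less at low counts, where the prior count weighs more. Myl3 ranged from −0.32 to −0.27, Mybpc2 from −0.20 to −0.15, Myl1 from −0.18 to −0.13 and Mybpc1 from 0.077 to 0.12. No member passed a ratio of 0.8 or its inverse under the alternatives run, and 3 or 4 had intervals below 0 and 2 to 4 above. The number of tested genes past 2-fold was 431, 647 with no filter on low counts and 126 at a minimum of 100, settings that test more and fewer genes. The change in the Mybpc2 share was −4.14 percentage points, and −3.41 with FPKM values, which divide by a longer Mybpc1. With principal transcript lengths, chosen after seeing the data, 4 of 10 members kept their rank by level in flox/flox and 6 of 10 in scKO. No replicate could be left out, and no paired analysis was possible because each genotype has 1 library. Depth limits Myl4 and Myl6b most.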
